A study of Petrolisthes cinctipes with 164 samples.

Results

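The probes Pc04Nf18, Pc06Wc21 and Pc23Po07, spots on a porcelain crab array, read lower in heat stressed crabs than in control crabs 1 and 2 h after the heat and closer to the control on average over 24 and 30 h, although Pc23Po07 at 24 h was lower than at 1 or 2 h. They were the 3 of 13818 probes that passed a rule on the measured values. The differential of a probe was the log2 value of a heat stressed crab minus that of the control crab paired with it, so -1 stands for a 2-fold lower signal. The early differential was its mean over the 9 pairs of 1 and 2 h, the middle one over the 10 pairs of 12 and 18 h, and the late one over the 10 pairs of 24 and 30 h. A probe was a member when the early differential was at or below -0.4 and lowest of these means, the late one was above 0.5 times the early one, and both the middle and the late one were below 0.25. Another 6 probes, Pc01Hc13, Pc03Nd19, Pc03Ni14, Pc04Nk04, Pc04Nk13 and Pc01Hd14, were set aside by name. Up to 60 members were allowed and 3 were found.

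The animals were Petrolisthes cinctipes. Heat stressed crabs were warmed in water from 11 to 30 °C over 4 h, control crabs stayed at 11 °C, and all recovered at 11 °C for 0.5, 1, 2, 4, 6, 12, 18, 24 or 30 h before sampling. Each of the 18 groups held 3 to 5 crabs, 82 in all, and no tissue, age or sex is named in the labels. A heat stressed and a control crab of equal number at a time point were hybridised together on 2 arrays, a and b, with Cy5 and Cy3 exchanged, and both readings of a crab were averaged to give its level.

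Petrolisthes cinctipes lives under stones between the tide lines, where low tide can warm a crab within hours. In animals in general, heating raises the transcripts of chaperones, which refold damaged proteins, while the transcripts of other genes can fall and return during recovery. A spotted cDNA probe reads the amount of matching transcript in the RNA put on the array, so a lower signal may mean less transcript per cell or fewer cells carrying it, and these cannot be told apart in RNA from bulk tissue. The probes are identified in the files only by the plate and well of their clone. Pc04Nf18, for example, came from plate Pc04N, well row f, column 18. No gene name or sequence was paired with them in the files, so the members are described by their measurements and no role is given to them.

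Treatment and time were read from the sample titles. In 21 of 164 samples the accompanying description gave another treatment or time, and for 6 crabs it gave the opposite treatment in both samples, namely those numbered 2 at 4 h and those numbered 3 and 4 at 6 h. Levels were compared within pairs, because the median of a channel ran from 6.77 to 9.17 between arrays while both channels of an array differed by 0.0177 in the middle case. Arrays a and b of a pair correlated over all probes with r as low as -0.47, at 4 h replicate 3, and below 0 in 8 of the 41 pairs. Their number limits the precision.

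Of the 13818 probes, 56 had an early differential at or below -0.4. The early mean was the lowest of the 3 means in 27 of these, the late mean also lay above 0.5 times the early mean in 18, and 5 met the limit on the middle and late means too. Among those 5, Pc01Hc13 and Pc03Nd19 belonged to the probes set aside by name, which left the 3 members. Another 23 of the 56 missed a single condition. For 13 of them this was the limit of 0.25 on the late mean, and their late means lay between 0.88 and 1.11, so these probes lay well above the control late in recovery. For 9 of them it was the return itself, 3 of which had been set aside by name.

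The members did not all sit far inside the limits. Pc04Nf18 entered with an early differential of -1.47 and a late one of -0.62, which had to be above -0.73. Pc06Wc21 and Pc23Po07 entered with -0.49 each, close to the limit of -0.4. Just outside lay Pc02He02, with an early differential of -1.20 and a late one of -0.61, and Pc10He11, with -0.44 and -0.24, both of which had missed 0.5 times the early value narrowly. Pc04Nj11 failed because its middle differential of -0.65 was lower than its early one of -0.44, although its late one was 0.10.

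**Figure D1:**
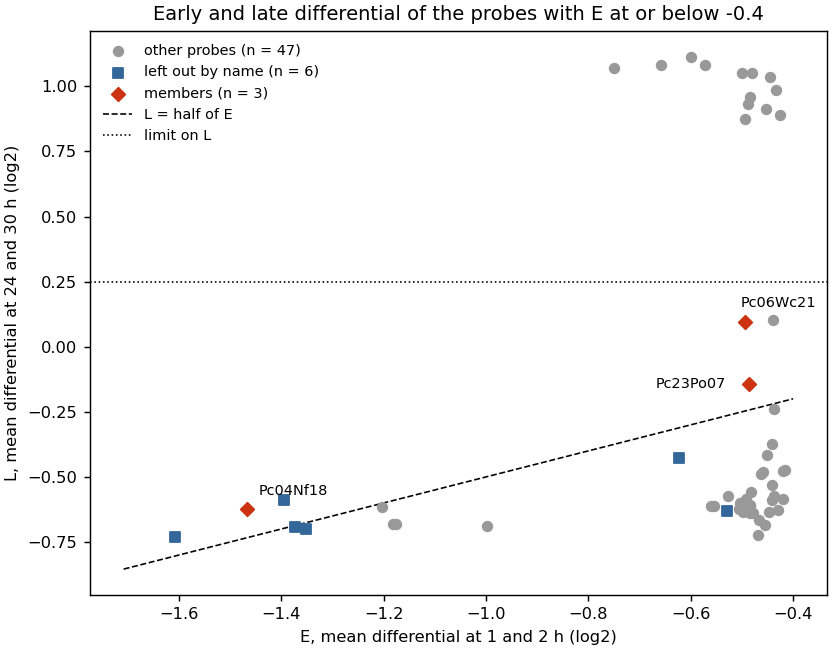
Late differential (mean of 24 and 30 h, log2) against early differential (mean of 1 and 2 h, log2) for the 56 probes with an early differential at or below -0.4, with the members as diamonds, the 6 probes set aside by name as squares and the other 47 probes as circles. The dashed line marks 0.5 times the early value and the dotted line the limit of 0.25. Pc04Nf18 lies far to the left of the other members, which sit near -0.49.

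Pc04Nf18 had the larger fall and the brighter signal. Its mean level over all crabs was 11.24, above 89.9% of the probes, and its early differential was lower than that of all but 1 probe. The differentials at 1 h were -1.82, -0.75, -1.05 and -2.40, and those at 2 h were -1.57, -1.40, -1.69, -1.37 and -1.15. Every one of these 9 pairs lay below 0. The heat stressed crabs therefore carried 2.84-fold less signal at 1 h and 2.70-fold less at 2 h on average, values that chose the probe and were not tested.

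Over the times that the rule used, the differential of Pc04Nf18 narrowed step by step and was still below 0 at 30 h. The course over all 9 times was not steady, since the mean was -0.28 at 4 h, nearer the control than at any later time, and -0.92 at 6 h. At 12 h the differentials were -0.80, -0.63, -1.50, -1.61 and -1.37, and at 18 h they were -1.31, -1.03, -1.19, -0.87 and -0.98, so all 10 pairs were still below 0. At 24 h they were -0.59, -0.31, -0.43, -0.62 and -1.65, and at 30 h -0.48, 0.23, -0.42, -0.996 and -0.97. Of the 10 pairs, 30 h replicate 2 alone stood above 0. The middle differential was -1.13 ± 0.32 and the late one -0.62 ± 0.50 (SD, n = 10 pairs each), against -1.47 ± 0.48 early (SD, n = 9 pairs). At 30 h the mean fold was still 1.44. Without 24 h replicate 5, which lay apart from the other 4 pairs of its time, the late differential was -0.51.

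The levels of both groups moved over this course, and a rise in the controls alone would have widened the differential. In heat stressed crabs the level of Pc04Nf18 was lowest at 1 h, 9.59 ± 0.54 (SD, n = 4), and highest at 30 h, 11.95 ± 0.52 (SD, n = 5). In control crabs it also ran upward, from 10.97 ± 0.51 at 0.5 h to 12.48 ± 0.76 at 30 h (SD, n = 5 each). At 0.5 h the heat stressed crabs read 10.22 and at 1 h the controls read 11.10. Both groups thus ended higher than they began, and the control level was not a fixed one. Measured above the median of each channel, the control mean was 3.02 at 0.5 h and 4.96 at 30 h, and that of the heat stressed crabs 2.27 at 0.5 h, 1.76 at 1 h and 4.43 at 30 h. When the 9 times were ordered by level, no step between neighbouring times was larger than the pooled SD, in either treatment. Small steps add up, however, and in both treatments the lowest and highest times lay further apart than the SD of either. The levels of heat stressed and control crabs overlapped at all 9 times, since crabs of unequal pairs differed in level.

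The heat stressed and control levels of Pc04Nf18 at 1 h show this. The heat stressed crabs read 9.50, 10.06, 8.87 and 9.94, and their controls 11.33, 10.81, 9.92 and 12.34. The control of replicate 3 was below the heat stressed crabs of replicates 2 and 4, yet each heat stressed crab was below its own control.

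Pc06Wc21 was a dimmer probe with a shallower fall. Its mean level was 9.31, above 78.0% of the probes. The differentials at 1 h were -1.21, 0.63, 0.18 and -1.49, and those at 2 h were -0.34, -0.11, -1.76 and -0.36, with 1 pair at 0.00. Below 0 were 6 of these 9 pairs, and the mean of -0.49 had an SD of 0.81. The lowest pairs, 1 h replicates 1 and 4 and 2 h replicate 3, made up the fall, since the other early pairs nearly cancelled each other. The early mean ran from -0.64 to -0.34 as each pair was left out.

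The later values of Pc06Wc21 lay on both sides of 0. The middle differential was -0.21 ± 0.56 with 6 of 10 pairs below 0, and the late one 0.096 ± 0.86 with 6 of 10 below 0 (SD, n = 10 pairs each). A single pair, 24 h replicate 5 at 2.02, lifted the late mean above 0, and without it the mean was -0.12. By time point, the lowest mean was at 4 h, -0.96, which the rule did not use, and not at 1 or 2 h. The control level was lowest at 12 h, 8.82, and highest at 4 h, 10.12, and the heat stressed level ran from 8.69 at 12 h to 9.65 at 24 h. Again no step between neighbouring times in the order of levels was larger than the pooled SD, which leaves aside the span between the lowest and highest times. Measured above the median of each channel, the heat stressed mean was lowest at 1 h, 0.93, beside 0.97 at 12 h, and highest at 24 h, 1.98. The control mean so measured was still lowest at 12 h, 1.10, and highest at 4 h, 2.67.

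Pc23Po07 varied most between crabs at the times that chose the members, but least of the 3 at 0.5, 4 and 6 h. Its mean level was 8.84, above 72.4% of the probes. The differentials at 1 h were 1.00, -0.12, -1.43 and -1.18, and those at 2 h were -2.96, -0.31, -0.78, 1.25 and 0.15. As for Pc06Wc21, 6 of the 9 pairs were below 0, but the SD of 1.29 was far larger than the mean of -0.49. The lowest value, at 2 h replicate 1, came with a control crab at 12.85, the highest level of this probe in any crab. Without that pair the early mean was -0.18, which is above the limit of -0.4.

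For Pc23Po07 the label of a lasting return was not borne out time by time. Its lowest time point mean was at 24 h, where the differentials were -1.36, -0.40, -1.27, -0.28 and -0.31, all below 0, with a mean of -0.72. At 30 h they were -1.01, 2.72, 1.19, -2.42 and 1.70, with a mean of 0.43. The late mean of -0.14 ± 1.57 (SD, n = 10 pairs) averaged a time at which every heat stressed crab was below its control and a time at which the pairs scattered over 5 log2 units. The 12 h mean was 0.04 and the 18 h mean -0.25. Heat stressed and control crabs overlapped in level at all 9 times, as they did for Pc06Wc21.

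**Figure D2:**
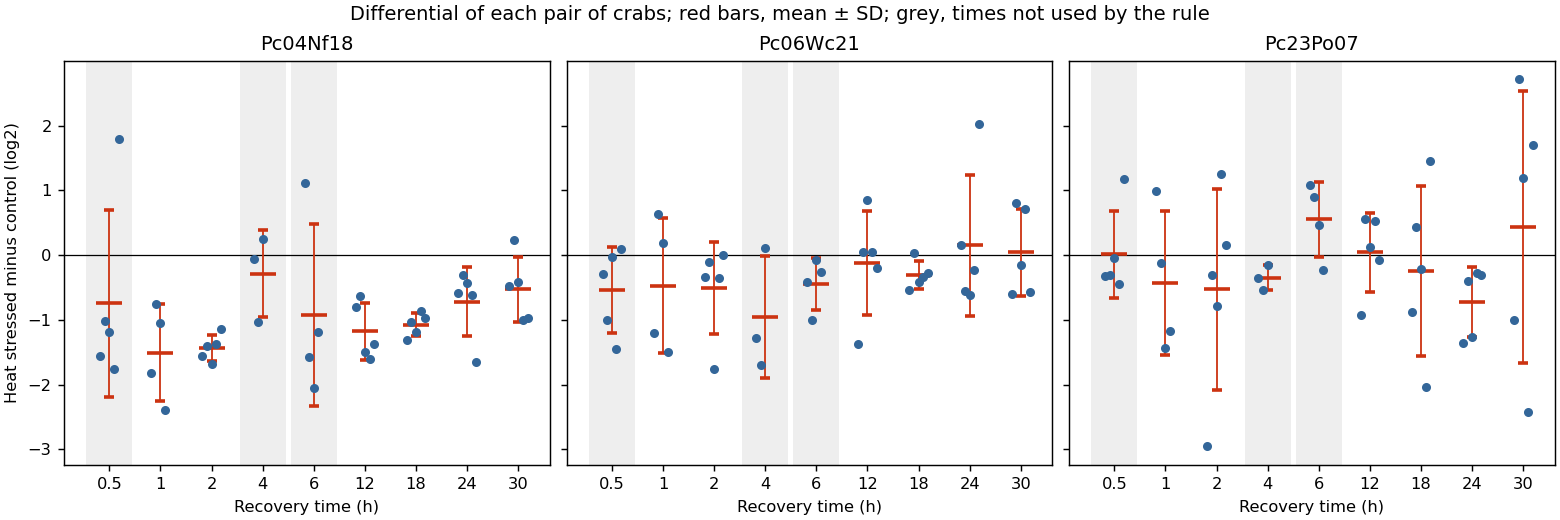
Differential (log2, heat stressed minus control) of each pair of crabs against recovery time in hours for the 3 members, with the mean and SD of each time as bars and the 0.5, 4 and 6 h times, which the rule did not use, in grey. Pc04Nf18 lies below 0 in 37 of 41 pairs and narrows after 18 h, Pc06Wc21 in 28 of 41, and Pc23Po07 in 26 of 41 with the widest scatter at 2 and 30 h.

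**Figure D3:**
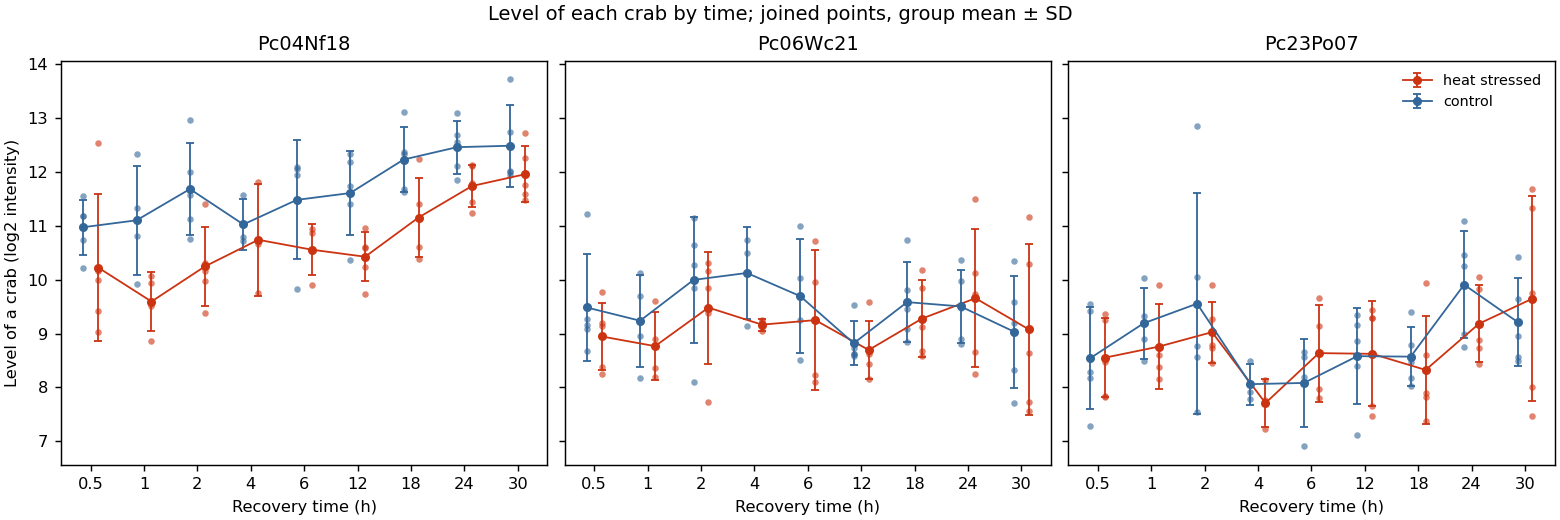
Level (log2 intensity, mean of both channels of a crab) of every crab against recovery time in hours, with group means and SD joined by lines. For Pc04Nf18 both groups climb, the control from 10.97 to 12.48, and the groups overlap at every time for all 3 members.

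The 12 pairs of 0.5, 4 and 6 h took no part in choosing the members, so the fall could be examined in them. They show whether crabs other than those that defined the set also carried less of these transcripts after heat. Pc04Nf18 was below 0 in 9 of the 12 pairs and Pc06Wc21 in 10. For Pc23Po07 8 of the 12 pairs were below 0 but the mean was 0.10. The mean of Pc04Nf18 over these pairs was -0.69 ± 1.20 and that of Pc06Wc21 was -0.61 ± 0.64 (SD, n = 12 pairs), while the mean of Pc23Po07 had an SD of 0.63. Within a time point the differentials of the members spread by 1.30, 0.67 and 0.57 (pooled SD), against 0.20 for the median probe. The middle one of the 3 member means was -0.54 at 0.5 h (Pc06Wc21), -0.35 at 4 h (Pc23Po07) and -0.44 at 6 h (Pc06Wc21). The medians over all probes were 0.01, -0.01 and 0.01. Pc23Po07 had a mean of 0.01 at 0.5 h and 0.55 at 6 h, so the middle value does not stand for every member.

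At 0.5 h the differentials of Pc04Nf18 were -1.56, -1.02, -1.19, -1.76 and 1.79. The first 4 pairs lay together far below 0, and replicate 5 lay as far above. At 6 h they were 1.12, -1.58, -2.05 and -1.18, again with 1 pair, replicate 1, above 0. In both of these pairs arrays a and b gave nearly the same value, 1.69 and 1.89 at 0.5 h and 1.03 and 1.20 at 6 h, and their titles and descriptions did not conflict. At 4 h the differentials were -0.07, -1.04 and 0.25. There the average hides a disagreement, because array a of replicate 1 read 0.95 and array b -1.08, and in replicate 3 they read -0.61 and 1.10.

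For Pc06Wc21 the differentials at 0.5 h were -0.30, -1.01, -0.03, -1.45 and 0.10. At 4 h they were -1.28, -1.70 and 0.11, and at 6 h -0.42, -1.01, -0.07 and -0.27. All 4 pairs of 6 h were below 0. For Pc23Po07 the values at 0.5 h were -0.33, -0.31, -0.04, -0.45 and 1.18, and at 6 h they were 1.08, 0.89, 0.47 and -0.23. The 4 h pairs of Pc23Po07 had a mean of -0.35 ± 0.20 (SD, n = 3) and were all below 0, while 3 of the 4 pairs of 6 h were above. The arrays did not agree in all of these pairs. Replicate 3 read -1.34 on array a and 1.04 on array b at 4 h, and 1.10 and -0.16 at 6 h.

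None of these differentials passed the test over all probes. In limma across the 82 crabs and 18 groups, p-values being adjusted by Benjamini-Hochberg over the 13818 probes, 0 of the 3 members had an adjusted p under 0.05 at 0.5, 4 or 6 h, for the mean of the 3 times, or for the change from 0.5 h to 4 and 6 h. The background in each of these 5 comparisons was 0% of the probes called. In the order given, 19, 1, 24, 32 and 0 probes of the whole table were under 0.05 before adjustment. The largest share was 0.232%, below what a threshold of 0.05 gives by chance alone. This fit, which leaves out the pairing, could thus hardly call a probe. With each pair as a block, the counts were again 0 of 3 members and 0% of all probes in all 5 comparisons, and before adjustment 487, 332, 672, 546 and 252 probes were under 0.05. In these fits the count of members called equalled the background because no probe at all was called. Before adjustment, 0, 0, 0, 1 and 0 of the 3 members were under 0.05 without the block. With the block they were 1, 1, 1, 2 and 0, beside 3.52, 2.4, 4.86, 3.95 and 1.82% of all probes.

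The estimates for the mean of the 3 times were below 0 for Pc04Nf18 and Pc06Wc21, and for Pc23Po07 the mean was made of values of opposite sign, -0.35 at 4 h and 0.55 at 6 h. The mean over 0.5, 4 and 6 h, each time counted equally, was -0.65 for Pc04Nf18 (SE 0.30, limma adjusted p = 1.00, or SE 0.22 and adjusted p = 0.998 with the block). For Pc06Wc21 it was also -0.65 (SE 0.38, or 0.22 with the block), and the 95% interval with the block ran from -1.09 to -0.21 against -1.11 to -0.20 for Pc04Nf18. The unadjusted limma p with the block was 0.0063 for Pc04Nf18 and 0.0051 for Pc06Wc21, and 546 probes, 3.95% of all, were under 0.05 in that comparison. For Pc23Po07 the mean was 0.07 (SE 0.41). Without the block, the change from 0.5 h to 4 and 6 h was 0.14 (SE 0.61) for Pc04Nf18, -0.16 (SE 0.76) for Pc06Wc21 and 0.09 (SE 0.82) for Pc23Po07. With treatment by title, no return within the first 6 h was thus measurable in these pairs. With the block the interval of that change for Pc04Nf18 ran from -0.77 to 1.05, and neither a return nor a further fall of that size could be told apart from none.

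The outcome for Pc04Nf18 depended on single pairs. With the block and without 0.5 h replicate 5, its differential at 0.5 h was -1.38 (SE 0.30, limma adjusted p = 0.034) and 1 of the 3 members was called, while 0.253% of all probes were. In the same fit the mean over the 3 times was -0.86 (adjusted p = 0.030), with 0.232% of all probes called. With the block and without 6 h replicate 1, its differential at 6 h was -1.60 (SE 0.38, adjusted p = 0.038) and the background was 0.514%. The mean over the 3 times was then -0.88 (adjusted p = 0.033), with 0.507% of all probes called. Without the block, neither omission gave a call of a member. The fit without 0.5 h replicate 5 then called 0.0434% of all probes at 0.5 h and 0.0434% for the mean. That without 6 h replicate 1 called 0.109% at 6 h and 0.0941% for the mean. The direction also rested on the labels. With treatment taken from the description for the 6 crabs of opposite label, Pc04Nf18 was at 0.41 at 4 h, 0.69 at 6 h and 0.12 for the mean of the 3 times, so the direction at these times is that of the titles.

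The arrays a and b of a pair measured the same RNA with the dyes exchanged and give the technical side of the spread. For Pc04Nf18 both arrays had the same sign in 38 of 41 pairs, and for Pc23Po07 in 36 of 41. For Pc06Wc21 they had the same sign in only 25 of 41 pairs, and the largest gap between them, 3.25, was at 4 h replicate 1, where array a read 0.35 and array b -2.91. The lowest time point mean of Pc06Wc21, at 4 h, thus rests in part on a reading that its other array did not show. Where the signs differed for Pc06Wc21, array a was above 0 and array b below it, except at 12 h replicate 4 (-0.08 and 0.16). The unlike signs thus ran mainly the same way, and the cause was not tested. For Pc23Po07 the scatter between pairs was shared by both arrays.

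In replicate 5 of 12, 18, 24 and 30 h the description of array b alone opposed the title. Pc04Nf18 was below 0 on both arrays in all 4 of these pairs, for example -1.80 and -1.50 at 24 h.

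**Figure D4:**
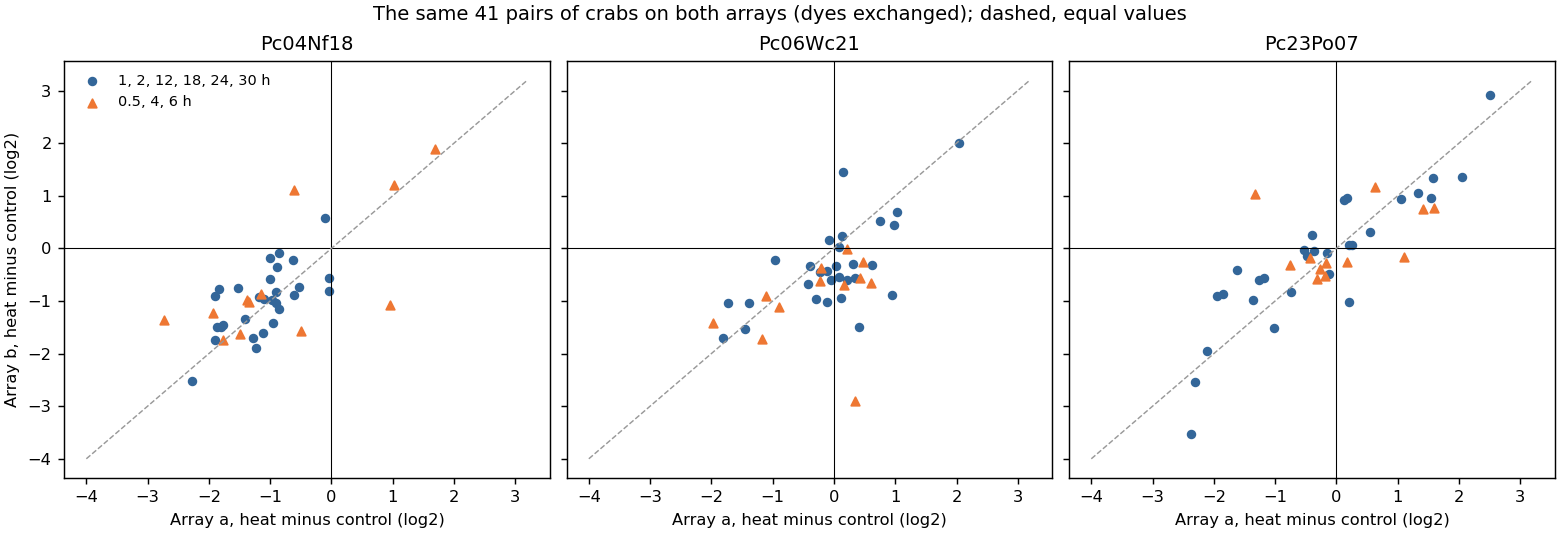
Differential on array b against that on array a (both log2) for each of the 41 pairs and each member, with pairs of 0.5, 4 and 6 h as triangles and the others as circles. Points near the dashed line agree between arrays. Pc06Wc21 has the same sign on both in 25 of 41 pairs, against 38 for Pc04Nf18 and 36 for Pc23Po07.

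No relation among the members passed the adjustment. Over the 12 pairs not used by the rule, the differential of Pc04Nf18 correlated with that of Pc06Wc21 at r = 0.31 (rho = 0.25) and with that of Pc23Po07 at r = 0.51 (rho = 0.26), and Pc06Wc21 with Pc23Po07 at r = 0.44 (rho = 0.64). In a two-sided permutation test the p-values of r were 0.32, 0.084 and 0.15 and those of rho 0.43, 0.42 and 0.030, and over the 21 relations computed the adjusted values were 0.36, 0.17 and 0.23 for r and 0.49, 0.49 and 0.090 for rho. Within time points the r values were 0.41, 0.79 and 0.36. Without the 2 pairs farthest from the median they were 0.04, -0.36 and 0.20, so the relation of Pc04Nf18 with Pc23Po07 rested on 0.5 h replicate 5 and 6 h replicate 1.

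Pc04Nf18 instead followed the probes set aside by name. Over the same 12 pairs its differential correlated with those of the 6 probes at r from 0.85 to 0.98 and rho from 0.68 to 0.96, with the lowest values for Pc04Nk13. The permutation p of r ran from 1e-05 to 0.00105. The adjusted permutation p ran from 7e-05 to 0.0037 for r and from 0.00042 to 0.065 for rho, where the raw value of 1e-05 behind the smallest is the smallest that the permutations can give. Without the 2 farthest pairs, which were 0.5 h replicate 5 and 6 h replicate 1, r was 0.77 to 0.95. Both Pc04Nf18 and Pc03Ni14 were below -1 in 8 pairs, and among these r was 0.75. In the 6 pairs where this held with Pc01Hc13, r was 0.54, and in the 6 where it held with Pc03Nd19, r was 0.16, so part of the likeness lay in the contrast between low pairs and the others. Within time points r stayed between 0.85 and 0.98. The values of a pair come from the same arrays for every probe, so these points share RNA and hybridisation as well as animals.

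Some of the 6 probes also resembled Pc04Nf18 in course. Pc01Hc13 went from -1.61 early to -0.73 late, Pc03Nd19 from -1.39 to -0.59, and Pc04Nk04 from -1.35 to -0.70. Pc03Ni14 went from -1.37 to -0.69. Pc04Nk13 moved less, from -0.62 to -0.43, and Pc01Hd14 did not return, with -0.53 early and -0.63 late. All of the rule's conditions were met by 2 of the 6. Neither Pc06Wc21 nor Pc23Po07 had a relation with any of the 6 that passed the adjustment: r was 0.13 to 0.44 for Pc06Wc21, with adjusted permutation p from 0.23 to 0.68, and 0.36 to 0.56 for Pc23Po07, with 0.16 to 0.33. The rho values were 0.13 to 0.51 and 0.10 to 0.45, with adjusted permutation p from 0.25 to 0.72 and from 0.32 to 0.77. For Pc23Po07 r within time points was 0.67 to 0.80, but without the same 2 pairs it was -0.41 to -0.14.

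**Figure D5:**
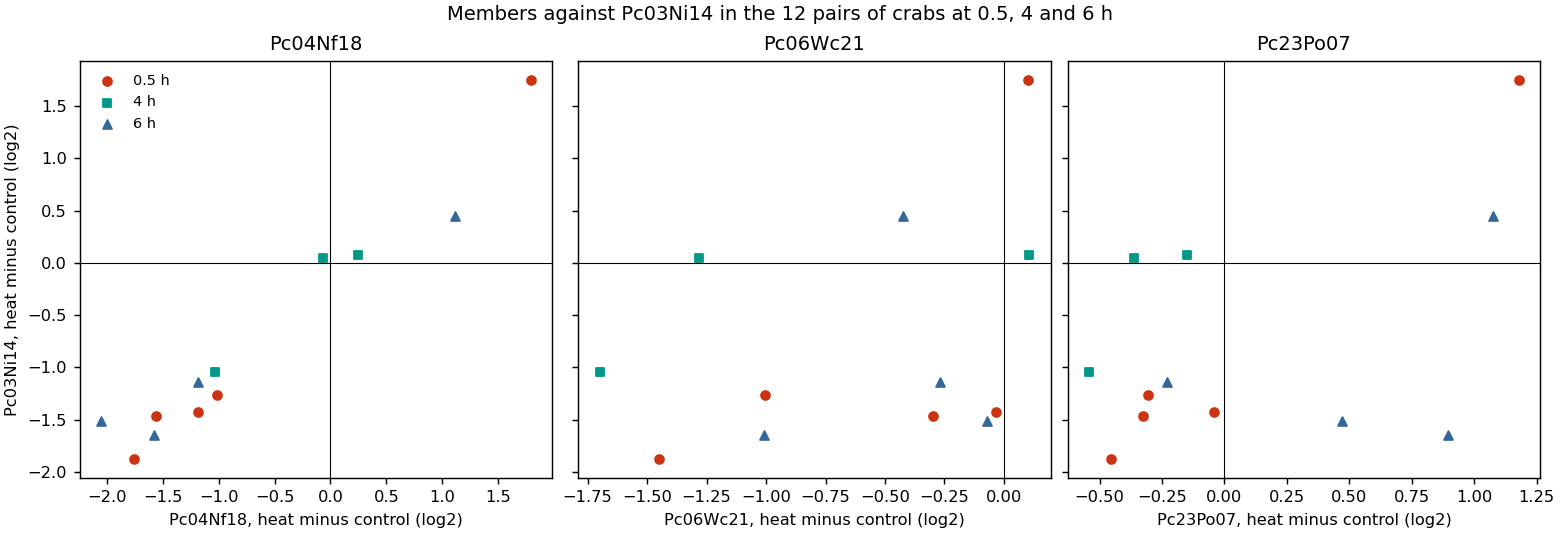
Differential of Pc03Ni14, a probe set aside by name, against that of each member (both log2) in the 12 pairs of 0.5, 4 and 6 h, with the times marked by symbol. Against Pc04Nf18 the points follow a line (r = 0.97), including the pairs above 0, and against Pc06Wc21 (r = 0.35) and Pc23Po07 (r = 0.51) they do not.

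When all 13818 probes were ranked by their correlation with Pc04Nf18 over these 12 pairs, the most alike was Pc02He02 (r = 0.98), the probe that had just missed the rule. Of the next 7, 4 were set aside by name, and Pc04Ne17 (0.96) and Pc04No20 (0.95) had early differentials of -1.18 and late ones of -0.68 each. The remaining one, Pc03Ni21 (0.96), had a different course, with -0.22 early, -0.46 in the middle and -0.47 late. In all, 26 probes exceeded r = 0.9 over these 12 pairs. The 12 pairs include 0.5 h replicate 5 and 6 h replicate 1, the farthest from the median of Pc04Nf18, and the count was not repeated without them. Pc04Ne17 also lay in a well diagonal to Pc04Nf18, while the 8 wells around Pc04Nf18 had a median early differential of -0.06.

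The other members had few probes like them. For Pc06Wc21 only Pc17Pa21 exceeded r = 0.9, at 0.92, and its early differential was 0.02, so the probe most alike in these pairs had not fallen early. For Pc23Po07 these were Pc23Pn04 (0.95) and Pc17Pk13 (0.92), with early differentials of -0.20 and -0.26. Among the 8 probes most alike to Pc04Nf18, 6 carried its plate letter N, as did 36 of the 87 probes above r = 0.8, and 768 of the 13818 probes carry it. The 8 probes most alike to Pc23Po07 all carried the plate letter P, which 2298 probes carry. Of the 8 most alike to Pc06Wc21, 1 carried its plate letter W, which 2304 carry. These likenesses were chosen from measured values and are descriptions.

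By plate, the members came from unlike surroundings. Of the 56 probes with an early differential at or below -0.4, 23 came from plates Pc03N and Pc04N, which hold 768 of the 13818 probes on 36 plates, and 10 of them from Pc04N, the plate of Pc04Nf18. Plate Pc06W held 3 of the 56 and plate Pc23P only Pc23Po07 itself.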

How the data were processed

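The values the authors deposited are log2 intensities of 82 cDNA arrays with 2 dyes, 164 channels in all and 13818 probes. Background correction and normalization are not given in the sources used here. The scale was taken as log2 from the range of the values, no value was missing, and all probes entered the tests.

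Both channels of a crab were averaged and heat stressed minus control was formed within pairs. Values of 1, 2, 12, 18, 24 and 30 h chose the members, and heat stressed and control crabs were not compared by a test there. Those of 0.5, 4 and 6 h were tested with lmFit and eBayes of limma 3.58.1 (R 4.3.3), in 1 fit of 82 crabs in 18 groups without a block, with p-values adjusted by Benjamini-Hochberg over all probes and a threshold of 0.05. The step was tested on simulated data. Labels number the crabs of a time point, and crabs with the same number lie on the same arrays. Over probes, the residuals of both crabs of a pair correlated in all 41 pairs (r from 0.44 to 0.94). The numbers thus pair the crabs, and results with the pair as a block stand beside the others. Crabs are separate animals. Correlations over pairs used 100000 permutations (Python 3.11.15, numpy 2.4.6, scipy 1.17.1, pandas 2.3.3, matplotlib 3.10.9).

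The members and lists were chosen with earlier results of these data known. The rule for named probes covered the 10 members with the lowest early minus late differential, those with extreme means at 0.5, 4 and 6 h, members called, and the probes at the limit of 60. With 3 members it named all of them. Other probes were named once their values had been seen, apart from those set aside by name. Gene lists and cell type markers were not used, as no annotation of the probes was given. Alternatives covered the pairing, normalization, dye, array, group summary, eBayes settings, crabs in the fit, dim probes, treatment label and each pair left out. The mean of time point means, and the block together with the label by description, were chosen after seeing the data.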

Additional observations from a re-analysis of the deposited data

Results flagged for a closer look

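Of 24 sets of 4 or 5 pairs, formed by the 3 members at 8 times, 4 held a pair that lay apart from the rest by Dixon's criterion, which chance meets in about 1 of 20 such sets. Only the 6 sets of 0.5 and 6 h, which held 2 of the 4, are independent of the choice of the members, and the pairs at 2 and 24 h are given as values. For Pc04Nf18 at 0.5 h, replicate 5 read 1.79, and its neighbours ranged from -1.76 to -1.02. The same pair stood apart for Pc23Po07, at 1.18 against -0.45 to -0.04. For Pc04Nf18 at 24 h, replicate 5 read -1.65 against -0.62 to -0.31. For Pc06Wc21 at 2 h, replicate 3 read -1.76 against -0.36 to 0.00.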

How the results depend on the processing

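The count of members called, 0 of 3 in each of the 5 comparisons, was the same under centring, quantile normalization, trended and robust eBayes, the fit of 0.5, 4 and 6 h alone, the fit without dim probes and the label by description. With the pairs as a replicate block it was also 0. Leaving out 1 pair at a time gave 0 to 1 at 0.5 h, at 6 h and for the mean of the times, the call being that of Pc04Nf18 with the block without 0.5 h replicate 5 or 6 h replicate 1. In this limma fit the differential of Pc23Po07 at 0.5 h, 0.0099, became -0.038 under quantile normalization.

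With treatment by description, with or without the block, the 4 h differentials were 0.41 (Pc04Nf18), 0.17 (Pc06Wc21) and 0.010 (Pc23Po07), and Pc04Nf18 was at 0.69 at 6 h and 0.12 for the mean of the times. The change from 0.5 h to 4 and 6 h was then 1.30 for Pc04Nf18, in place of 0.14 by title, and 0.49 for Pc06Wc21. With the block the 95% interval of this change for Pc04Nf18 ran from 0.36 to 2.23 (limma adjusted p = 0.69). A return of Pc04Nf18 within the first 6 h thus also depended on the label. The median of the members at 6 h was 0.43 in place of -0.44. The pairs exchanged under this label account for these values by construction.

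The direction of small differentials turned as single pairs were left out, with the same values with the block. Pc23Po07 ranged from -0.28 (without 0.5 h replicate 5) to 0.13 at 0.5 h and from -0.027 to 0.16 for the mean of the times, and Pc04Nf18 from -0.55 to 0.090 (without replicate 2) at 4 h. The change from 0.5 h to 4 and 6 h ranged from -0.20 to 0.78 for Pc04Nf18, with -0.060 and -0.11 without 0.5 h replicates 1 and 4, from -0.43 to 0.022 for Pc06Wc21 and from -0.025 to 0.38 for Pc23Po07. None of these passed the threshold.

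Membership moved more. The rule found 6 probes on medians over pairs, of which 1 was a member. It took 60, the most allowed, on arrays a alone and 34 on arrays b alone (2 and 3 members among them). At that limit a member can be missing although it met the conditions. The rule found 4 probes after quantile normalization, and the same 3 after centring or with the mean of time point means. As each of 29 pairs was left out it found 1 (without 1 h replicate 4) to 12 (without 2 h replicate 2), and kept Pc04Nf18 in 29 cases, Pc06Wc21 in 27 and Pc23Po07 in 23. The cause was not tested. The medians over the members early, middle and late moved by less than the spread under centring and group medians, as did those at 0.5, 4 and 6 h under the other dye and array choices. Arrays a and b of a pair differed by 0.40 (Pc04Nf18), 0.54 (Pc06Wc21) and 0.42 (Pc23Po07) in the middle case. These are gaps within single pairs, while the early limit of -0.4 applies to a mean over 9 pairs with both arrays averaged.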
